A study of Mus musculus with 12 samples.

Results

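The neurotrophins are small secreted growth factors first known for keeping neurons alive, and 7 genes of this signalling system were followed in fibroblasts given Sonic hedgehog. The genes are the ligands Bdnf (brain-derived neurotrophic factor) and Ntf3 (neurotrophin 3), the receptors Ngfr (the low-affinity receptor p75), Ntrk2 (TrkB), Ntrk3 (TrkC) and Sort1 (sortilin), and Gdnf, a neurotrophic factor of a separate family. They were taken by symbol from a table of 24346 genes, and all 7 were in it. Of these 7, 4 (Ngfr, Bdnf, Sort1 and Gdnf) passed the filter on low values, which asked for at least 0.5 FPKM (a read density that allows for transcript length and library size) in at least 3 of the 12 libraries and kept 12379 genes. The 7 genes were put together with earlier results on these same libraries known, so their own changes are given as a description. Where a change is said to pass, its adjusted p in a limma fit over all 12379 genes was at most 0.05.

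Mature neurotrophins bind Trk receptor tyrosine kinases, which signal through Ras, phosphatidylinositol 3-kinase and phospholipase C. The uncleaved proforms bind p75 together with sortilin, a pairing best known for signalling cell death in neurons. Fibroblasts have long been known as a source of neurotrophins for the fibres that innervate a tissue, and Gdnf acts through the kinase Ret with a GPI-anchored Gfra co-receptor.

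Both lines were mouse fibroblasts. NIH-3T3 came from NIH/Swiss embryos and was grown in bovine calf serum, and MLg came from newborn lung of the ddY strain and was grown in fetal bovine serum, so the line and its growth serum cannot be told apart. At 85% confluence cells received 1 µg/ml recombinant SHHN, the amino-terminal signalling fragment of Sonic hedgehog, or vehicle, in both cases for 48 h in 0.5% serum. Line and treatment gave 4 groups of 3 libraries. The labels do not say that these were separate cultures, so a p measures the spread between these libraries, which may be technical.

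FPKM totals ran from 470218 to 659862 and between 13401 and 14793 genes were above 0 per library. Sequencing depth is unknown, so no detection floor is given, and a value of 0 means that the gene is listed at 0. Gli1, the transcription factor that the Hedgehog pathway induces, was between 0.0840 and 0.906 FPKM in the 6 control libraries and between 113 and 151 FPKM in the 6 treated ones, as the labels have it. All 8 fibroblast markers had a group mean of at least 1 FPKM in every group. With SHHN 7 of the 8 passed as lower in NIH-3T3 (Col1a1, Col1a2, Pdgfra, Pdgfrb, Vim, Dcn and Lum, at 0.371 to 0.684 of control) and 2 in MLg (Pdgfra at 0.410 and Pdgfrb at 0.770 of control). Of all genes, 14.8% were called lower in NIH-3T3 and 10.0% in MLg. The part of the fibroblast markers in the results below was not tested. The summed level of 5 epithelial markers was at most 0.62 FPKM.

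In outline, Ngfr went from near 0 to 16.4 FPKM with SHHN in MLg and stayed under 1 FPKM in NIH-3T3. Bdnf did the reverse by line, at 3.70 times its control level in NIH-3T3 and close to it in MLg. Sort1 fell in both lines, to 0.461 and 0.348 of its control level. Gdnf was 4.29 times higher in MLg at a low level. Ntf3, Ntrk2 and Ntrk3 were below 0.5 FPKM in all 12 libraries. These are levels of whole cultures, where fewer cells making a transcript and less transcript per cell cannot be told apart.

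**Figure D1:**
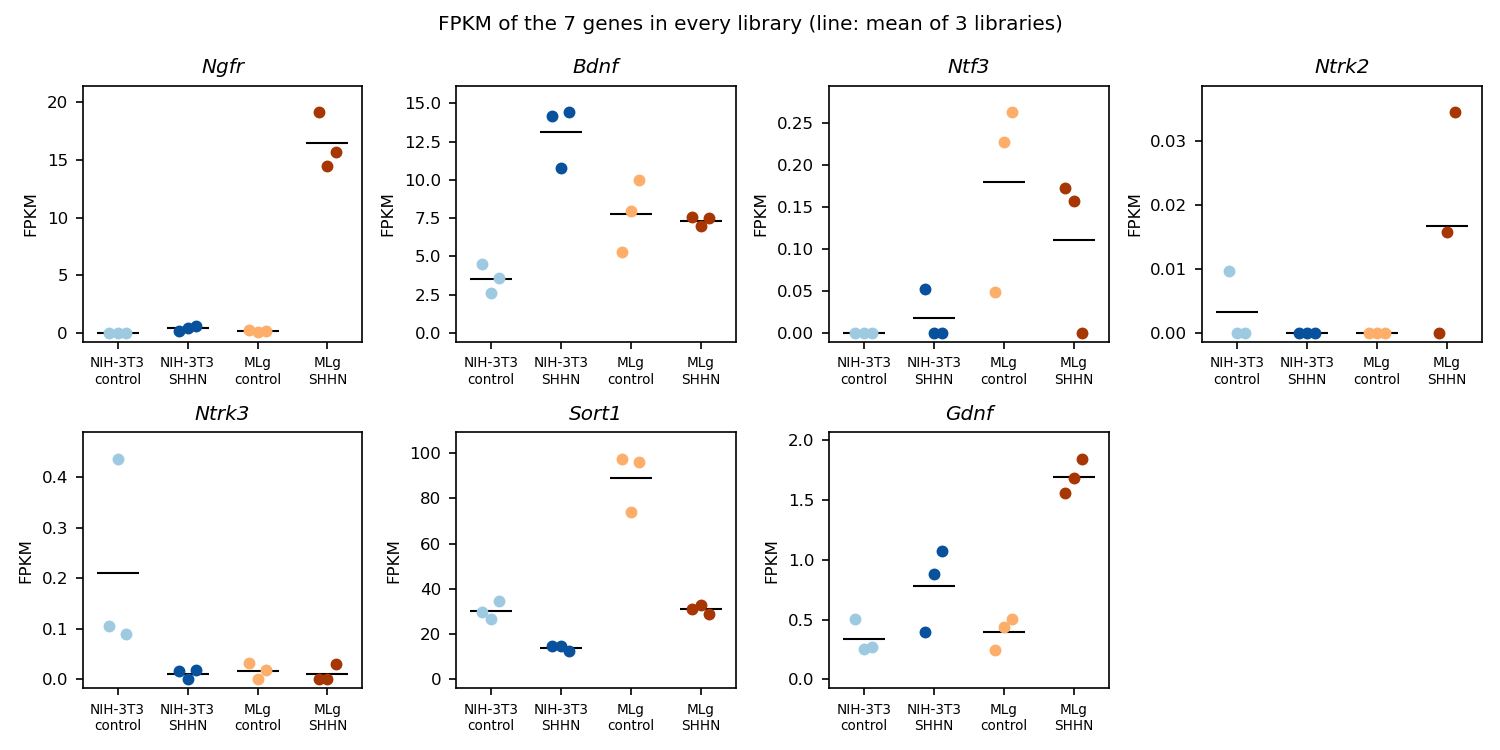
FPKM (y axis, linear, 1 scale per gene) of the 7 genes in each of the 12 libraries, grouped by line and treatment, with a line at the mean of 3 libraries. Ngfr stands between 14.5 and 19.1 FPKM in MLg SHHN and at most 0.575 FPKM elsewhere, while Ntf3, Ntrk2 and Ntrk3 do not reach 0.5 FPKM.

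Among the ligands, Bdnf binds TrkB and, like all neurotrophins, p75. In NIH-3T3 control it was 4.48, 2.58 and 3.58 FPKM (3.55 ± 0.949, SD, n = 3), and with SHHN it was 14.2, 10.8 and 14.4 FPKM (13.1 ± 1.99). The groups did not overlap, the log2 fold change on log2(FPKM + 0.5) was 1.77 (SE 0.22), and the change passed. In MLg control Bdnf was 5.29, 7.98 and 10.0 FPKM (7.77 ± 2.39), and with SHHN 7.55, 6.98 and 7.49 FPKM (7.34 ± 0.314). The MLg groups overlapped, all 3 treated libraries lay inside the range of the controls, and the log2 fold change of −0.04 (SE 0.22) did not pass. It was 0.16 without MLg control replicate 3 and 0.00284 without MLg control replicate 2. The difference between the lines' effects (NIH-3T3 minus MLg) was 1.81 (SE 0.30) and passed. Bdnf was the only member called higher in this difference, where 7.48% of all genes were called higher. That share of all genes depended on a library, since 1662 genes were called in either direction and 1056 without MLg SHHN replicate 3.

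Without ligand Bdnf was lower in NIH-3T3 than in MLg (log2 difference −1.02, SE 0.22), and under SHHN it was higher there (0.79, SE 0.22). Both differences passed and in both the libraries of the lines did not overlap, so the order of the lines for Bdnf was opposite under SHHN. Bdnf lies at chromosome 2:109674700-109727007 in mm10, plus strand, and overlaps the opposite-strand gene Gm45346. Whether reads were counted by strand is not given in the sources used here, so reads of Bdnf and of this gene may not be separate.

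Gdnf supports several classes of neurons and guides growth of the ureteric bud and enteric nervous system. In MLg control it was 0.242, 0.437 and 0.507 FPKM, and with SHHN 1.56, 1.68 and 1.84 FPKM (1.70 ± 0.141, SD, n = 3). Every treated MLg library was above every control, with a log2 fold change of 1.30 (SE 0.21) that passed. On this low gene the scale decides the size, and the change was 1.90 with a pseudocount of 0.1 and 0.95 with 1. In NIH-3T3 Gdnf was 0.502, 0.251 and 0.271 FPKM in control and 0.394, 0.882 and 1.07 FPKM with SHHN. SHHN replicate 1 lay below control replicate 1, so the groups overlapped.

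The NIH-3T3 log2 fold change of Gdnf, 0.58 (SE 0.21), did not pass. It passed with median-ratio scaling (0.57) and without NIH-3T3 SHHN replicate 1 (0.82), NIH-3T3 control replicate 1 (0.71) or MLg control replicate 1 (0.58). The difference between the lines' effects on Gdnf was −0.72 (SE 0.30) and did not pass, except with quantile normalization (−0.89). The control libraries of the lines overlapped for Gdnf, and under SHHN it was lower in NIH-3T3 by a log2 difference of −0.81 (SE 0.21) that passed. Gdnf lies at 15:7810846-7837575, plus strand.

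Ntf3, the preferred ligand of TrkC, had no value above 0 in the 3 NIH-3T3 controls, and with SHHN it was 0.0527, 0 and 0 FPKM. In MLg it was 0.0486, 0.228 and 0.263 FPKM in control and 0.173, 0.158 and 0 FPKM with SHHN, and these groups overlapped. Ntf3 lies at 6:126101412-126166910 on the minus strand. It did not pass the filter and was not tested.

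Of the receptors, Ngfr encodes p75, a death-domain receptor of the tumour necrosis factor receptor family that binds every neurotrophin. In MLg control it was 0.258, 0.0504 and 0.143 FPKM (0.150 ± 0.104, SD, n = 3). With SHHN it was 19.1, 14.5 and 15.7 FPKM (16.4 ± 2.35), 109 times the control mean, or 170.0 times without MLg control replicate 1. All 3 treated libraries were far above all 3 controls, and the log2 fold change was 4.71 (SE 0.19), or 6.13 and 3.92 with pseudocounts of 0.1 and 1.

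In NIH-3T3 control Ngfr was listed at 0 in replicates 1 and 3 and was 0.0354 FPKM in replicate 2. With SHHN it was 0.191, 0.440 and 0.575 FPKM, above each of these controls. Replicates 2 and 3 were also above every MLg control. The log2 fold change of 0.79 (SE 0.19) passed, but its size follows the pseudocount, with 2.10 at 0.1 and 0.46 at 1, and Ngfr did not pass the filter when the 6 NIH-3T3 libraries were fitted alone. The difference between the lines' effects was −3.91 (SE 0.26) and passed, where 5.95% of all genes were called lower. Ngfr met the filter through the 3 MLg SHHN libraries and 1 NIH-3T3 SHHN library alone, so its passing the filter already required treated libraries to be high.

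Under SHHN, Ngfr was lower in NIH-3T3 than in MLg by a log2 difference of −4.25 (SE 0.19), a ratio of means of 40.9 in favour of MLg. Without ligand the difference of −0.33 (SE 0.19) did not pass, although all 3 MLg controls were above all 3 NIH-3T3 controls. With a pseudocount of 0.1 it was −1.09 and passed. Ngfr lies at 11:95568818-95587735 on the minus strand, with no other annotated gene overlapping it.

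Since p75 also marks Schwann cells and neural crest, 7 markers of these cells were read beside it. Their summed level was 1.15 to 2.16 FPKM in MLg control and 2.08 to 3.21 FPKM in MLg SHHN, and 1.33 to 2.63 FPKM in NIH-3T3 control and 6.13 to 11.5 FPKM in NIH-3T3 SHHN. S100b, a calcium-binding protein of that list, went in NIH-3T3 from 0.638 ± 0.206 to 7.69 ± 2.68 FPKM (SD, n = 3). Sox10, a defining factor of the neural crest, was at most 0.0209 FPKM in any library, and Foxd3 was listed at 0 in all 12. Of the 2 markers of that list that were tested, S100b passed as higher with SHHN in both lines. The sum of 4 endothelial markers (Pecam1, Cdh5, Kdr and Tek) also went up in MLg, from 0.101 to 0.154 FPKM in control to 5.78 to 6.51 FPKM with SHHN, and in NIH-3T3 it was 5.75 to 7.93 and 6.73 to 25.3 FPKM. In MLg SHHN this was Cdh5 at 4.63 to 5.41 FPKM and Tek at 0.788 to 1.03 FPKM. There Pecam1 and Kdr were at most 0.137 and 0.0116 FPKM. Cdh5 passed as higher with SHHN in both lines, from a mean of 0.0774 to 9.06 FPKM in NIH-3T3 and from 0.0123 to 5.03 FPKM in MLg. It was at most 0.103 FPKM in any control and met the filter through SHHN libraries alone. Its passing the filter thus already required treated libraries to be high. Tek passed as higher in MLg and did not pass in NIH-3T3. Neuron markers summed to 4.48 to 7.23 FPKM in MLg control and 5.33 to 6.04 FPKM in MLg SHHN, with members that moved in opposite directions. Of the 4 neuron markers tested, Snap25 rose in MLg from a mean of 0.268 to 1.43 FPKM (limma adjusted p = 0.00115) and Tubb3 fell from 0.938 to 0.295 FPKM (adjusted p = 0.00223). In NIH-3T3 the neuron markers summed to 10.7 to 14.4 FPKM in control and 6.96 to 10.5 FPKM with SHHN. Tubb3 fell there too, from 4.58 to 1.22 FPKM (limma adjusted p = 9.94e-06), and Snap25 did not pass (0.520). In MLg 4 leukocyte markers summed to 4.95 to 7.56 FPKM in control and 4.71 to 5.40 FPKM with SHHN. In NIH-3T3 they summed to 1.70 to 2.95 and 1.88 to 2.64 FPKM, and Cd14 of that list passed as higher (limma adjusted p = 0.0269). The part of the Schwann, endothelial, neuron and leukocyte markers in the Ngfr result was not tested.

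The promoter of Ngfr is shown because this gene had the largest difference of the 4 tested members, and that of Gdnf because it passed in the same direction in MLg. Both are the 250 bases before a RefSeq start on GRCm38.p6 (mm10), 5′ to 3′. Capitals mark GGGCGG or its reverse complement CCGCCC, the GC box bound by Sp factors.
Ngfr, chr11:95587699-95587948, minus strand: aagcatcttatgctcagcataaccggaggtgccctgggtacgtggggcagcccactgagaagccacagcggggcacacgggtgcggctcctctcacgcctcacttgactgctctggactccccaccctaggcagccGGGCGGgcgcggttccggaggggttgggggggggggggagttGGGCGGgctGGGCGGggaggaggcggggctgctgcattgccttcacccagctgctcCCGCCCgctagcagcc
Gdnf, chr15:7809798-7810047, plus strand: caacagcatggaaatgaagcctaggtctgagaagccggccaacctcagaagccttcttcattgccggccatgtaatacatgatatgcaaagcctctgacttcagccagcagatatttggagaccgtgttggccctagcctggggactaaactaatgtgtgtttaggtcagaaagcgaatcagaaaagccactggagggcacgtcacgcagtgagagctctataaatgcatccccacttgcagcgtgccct
The Ngfr sequence held 4 GC boxes, 70.4% G and C and 16 CpG, and the Gdnf sequence none, with 50.8% G and C and 7 CpG. GENCODE places the start of Ngfr at 95587735, inside the Ngfr window. By that annotation the CCGCCC and the bases after it lie within the gene. Gdnf had 2 starts in the table and the first is shown, and the other, at chr15:7813477-7813726, also held no GC box, with 46.8% G and C and 14 CpG. Over 32851 promoter entries, 32.7% held at least 1 GC box, and the medians were 52.4% G and C and 6 CpG. The Gli consensus GACCACCCA and the shorter CCACCCA within it, searched on both strands, were in none of the 13 entries of the 5 members in the table (Ngfr, Bdnf with 7 starts, Ntf3, Ntrk2 and Gdnf). The consensus was in 0.225% and the shorter form in 8.11% of all entries, so no match says only that these letters are not in these windows. Ntrk3 and Sort1 had no entry.

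Sort1 encodes sortilin, a sorting receptor that carries proneurotrophins to their destinations in the cell and joins p75 at the surface. It had the highest level per transcript length of the 7 genes in every group by mean. In NIH-3T3 it was 29.7, 26.6 and 34.8 FPKM in control (30.4 ± 4.10, SD, n = 3) and 14.7, 14.7 and 12.6 FPKM with SHHN (14.0 ± 1.19). In MLg it was 97.3, 73.8 and 96.1 FPKM in control (89.0 ± 13.2) and 31.1, 32.9 and 29.0 FPKM with SHHN (31.0 ± 1.93). No treated library reached a control library of its line, and MLg with SHHN stood near NIH-3T3 without it.

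Sort1 fell in both lines, and both log2 fold changes passed, −1.08 (SE 0.13) in NIH-3T3 and −1.5 (SE 0.13) in MLg. The difference between these effects, 0.41 (SE 0.19), did not pass. Sort1 was higher in MLg than in NIH-3T3 both without SHHN (log2 difference, NIH-3T3 minus MLg, −1.53) and with it (−1.12, SE 0.13 each). It lies at 3:108284082-108361511, plus strand, and overlaps Gm12523 on the opposite strand and Gm43099 on the same strand, whose reads may not be separate from its own.

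TrkB and TrkC had the lowest levels of the 4 receptors by mean in each group but NIH-3T3 control. Ntrk2, the receptor of Bdnf, was listed at 0 in 9 of the 12 libraries and otherwise was 0.00970 FPKM in NIH-3T3 control replicate 1 and 0.0158 and 0.0345 FPKM in MLg SHHN replicates 2 and 3. Ntrk3, the receptor of neurotrophin 3, was 0.106, 0.436 and 0.0906 FPKM in NIH-3T3 control and 0.0173, 0 and 0.0182 FPKM with SHHN. These Ntrk3 groups did not overlap, but the gene did not pass the filter. In MLg Ntrk3 was at most 0.0318 FPKM. In mm10, Ntrk2 lies at 13:58806569-59133970 and Ntrk3 at 7:78175959-78738012, each overlapping 4 other annotated genes.

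Counted over the 4 tested members, 2 passed as higher and 1 as lower in each line. In NIH-3T3 these were Ngfr, Bdnf and Sort1, where 16.6% of all genes were called higher and 14.8% lower. In MLg they were Ngfr, Gdnf and Sort1, where 12.8% were called higher and 10.0% lower. The same members were those whose groups did not overlap, against 21.6% of genes higher and 18.8% lower in NIH-3T3 and 21.4% and 20.0% in MLg. Between the lines without ligand, 2 members were called lower in NIH-3T3 (Bdnf and Sort1) and 0 higher, where 25.7% of all genes were called lower, 24.4% higher and 50.1% either way. Without overlap there were 3 lower (Ngfr, Bdnf and Sort1) and 0 higher, where 27.0% and 25.2% of all genes were. Under SHHN 3 members were called lower in NIH-3T3 (Ngfr, Sort1 and Gdnf) and 1 higher (Bdnf), where 24.8% of all genes were called lower, 22.1% higher and 46.8% either way. The same 4 members had no overlap there, where 32.7% of all genes were lower and 28.6% higher without overlap. The members were chosen with these comparisons known, so nothing is read from the counts.

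The order of levels within a library, which FPKM allows per transcript length, differed between the lines under SHHN. In both control groups Sort1 was followed by Bdnf and then Gdnf, with no overlap between neighbours in that order. In NIH-3T3 SHHN the ranges of Sort1 and Bdnf overlapped. In MLg SHHN Ngfr stood between Sort1 and Bdnf, with no overlap on either side. The ratio of Sort1 to Ngfr was 377 to 1460 in MLg control and 1.63 to 2.26 in MLg SHHN, and it was still 22 to 77.0 in NIH-3T3 SHHN.

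The rest of the family was read from 14 genes, of which 7 passed the filter. In NIH-3T3 none rose and 1 fell (Gfra1), and in MLg 1 rose (Sorcs2) and 1 fell (Gfra1). Of all genes, 31.4% were called in either direction in NIH-3T3 and 22.8% in MLg. The median log2 fold change of the 7 was 0.11 in NIH-3T3 and −0.03 in MLg, beside −0.01 and −0.00261 over all genes.

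Sorcs2, a receptor of the sortilin family that also pairs with p75, rose in MLg from 1.59, 1.57 and 1.63 FPKM to 7.56, 6.71 and 5.86 FPKM (log2 fold change 1.78, SE 0.16, adjusted p = 2.58e-06). In NIH-3T3 it was 3.23, 3.13 and 2.64 FPKM in control and 2.78, 4.51 and 3.46 FPKM with SHHN, with overlapping groups (0.20, SE 0.16, adjusted p = 0.372 in the limma fit). The effects differed by −1.57 (SE 0.23, adjusted p = 5.56e-04). In MLg Sorcs2 and Ngfr were thus both higher while Sort1 was lower.

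Of the other sortilin relatives, Sorcs1 was between 3.34 and 5.72 FPKM in the 6 MLg libraries and at most 0.0381 FPKM in NIH-3T3, and it passed in neither line's SHHN comparison. Sorl1 was at most 0.0752 FPKM in any library, and Sorcs3 was listed at 0 in all 12. Ntf5 (neurotrophin 4/5, another TrkB ligand) was 0.663 to 1.59 FPKM in NIH-3T3 and at most 0.170 FPKM in MLg, with no change that passed (adjusted p = 0.595 in NIH-3T3 and 0.955 in MLg).

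Among the Gdnf receptors, Gfra1, the co-receptor of Gdnf, was the one that passed in both lines. In NIH-3T3 it fell from 13.7, 8.60 and 11.5 FPKM to 1.40, 1.98 and 1.36 FPKM (log2 fold change −2.49, SE 0.18, adjusted p = 2.08e-07). In MLg it fell from 0.762, 0.651 and 0.818 FPKM to 0.188, 0.365 and 0.221 FPKM (−0.72, SE 0.18, adjusted p = 0.0106), a change from a level already under 1 FPKM. The effects differed by −1.77 (SE 0.26, adjusted p = 5.69e-04). Gdnf and Gfra1 thus changed in opposite directions in MLg.

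Gfra2, the co-receptor of neurturin, was 30.7, 26.7 and 27.2 FPKM in NIH-3T3 control and 12.2, 24.5 and 22.1 FPKM with SHHN (−0.57, SE 0.21, adjusted p = 0.0581), and at most 0.130 FPKM in MLg. Its NIH-3T3 change passed without NIH-3T3 SHHN replicate 2 (0.0246) or 3 (0.0496) and with 3 other settings. Nrtn, neurturin itself, had the reverse distribution, with 3.89 to 9.70 FPKM in MLg and at most 0.547 FPKM in NIH-3T3 (adjusted p = 0.112 for SHHN in NIH-3T3, and 0.00605 with a pseudocount of 0.1). Ret, the kinase of this receptor system, was at most 0.0257 FPKM in any library. Ncam1, an alternative Gdnf receptor, was 8.62 to 13.6 FPKM in NIH-3T3 and 22.3 to 37.8 FPKM in MLg and passed in neither line (adjusted p = 0.669 and 0.125, the second 0.0315 without NIH-3T3 control replicate 2 and 0.0492 with the 6 MLg libraries fitted alone). Of the last of these genes, Gfra3 was listed at 0 in all 12 libraries, Gfra4 and Artn were at most 0.0585 and 0.0915 FPKM, and Pspn, at most 1.07 FPKM, was listed at 0 in 7 of the 12.

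**Figure D2:**
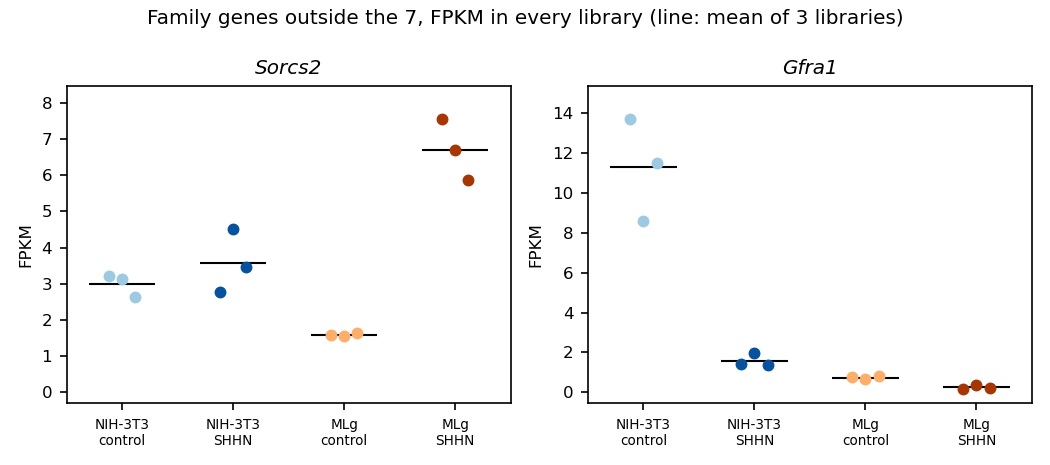
FPKM (y axis, linear, 1 scale per gene) of Sorcs2 and Gfra1 in each of the 12 libraries by line and treatment, with a line at the mean of 3 libraries. Sorcs2 is higher with SHHN in MLg without overlap, and Gfra1 drops from 8.60 or more to 1.98 FPKM or less in NIH-3T3.

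**Figure D3:**
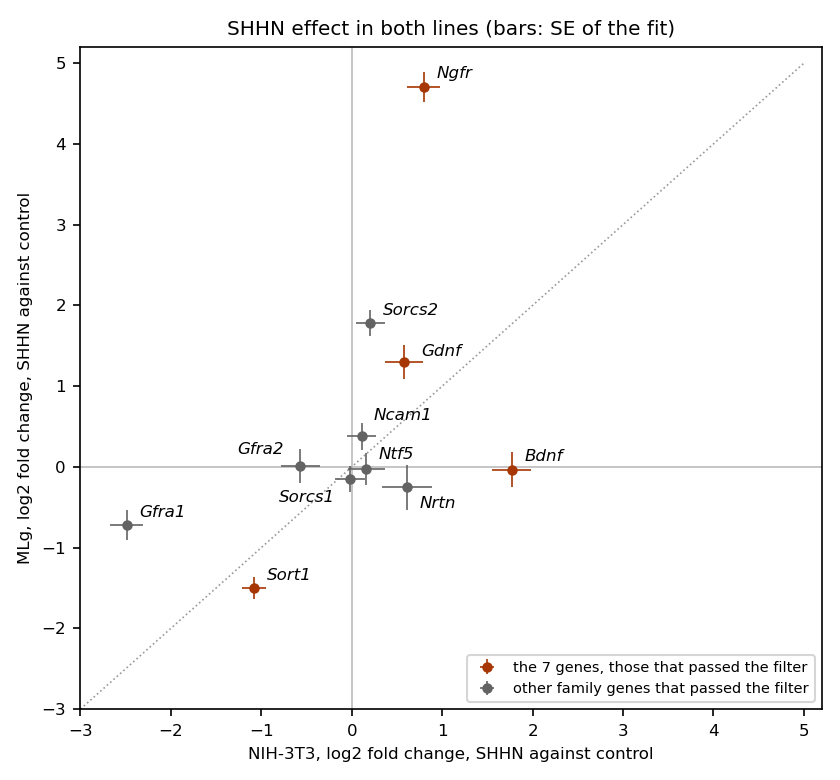
Log2 fold change of SHHN against control in NIH-3T3 (x axis) and in MLg (y axis) for the 4 tested members and the 7 tested family genes, with bars of 1 SE of the fit and a dotted line of equal change. Ngfr, Sorcs2, Gfra1, Gdnf, Gfra2 and Ncam1 lie above the dotted line, and of these the difference between lines passed for Ngfr, Sorcs2 and Gfra1. Bdnf lies far to the right of the dotted line, and Sort1 is below 0 on both axes.

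Of 14 co-receptors and adaptors of p75, 11 were tested, with 1 higher and 2 lower in NIH-3T3, where 16.6% of all genes were called higher and 14.8% lower. In MLg 0 were higher and 1 lower, where 12.8% and 10.0% of all genes were. In NIH-3T3 the p75 adaptor Maged1 (NRAGE) fell by 0.45 on the log2 scale (SE 0.11, adjusted p = 0.00607), Traf6 fell by 0.37 (adjusted p = 0.0440) and Ndn (necdin) rose by 0.31 (adjusted p = 0.0389). The calls on Traf6 and Ndn were lost without 10 and 8, in turn, of the 12 libraries (adjusted p from 0.0519 to 0.170 and from 0.0531 to 0.125). The libraries without which they held were NIH-3T3 control replicate 2 and MLg control replicate 3 for both, and MLg control replicates 1 and 2 for Ndn. In MLg Nradd, a p75 homologue, fell by 0.70 (SE 0.17, adjusted p = 0.00844), while Arhgdia (adjusted p = 0.165) and Prdm4 (0.301) did not pass. The medians of the list were 0.12 and −0.03.

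Of 20 Trk adaptors and transducers 19 were tested, with 4 higher and 2 lower in NIH-3T3 (all genes 16.6% and 14.8%) and 1 higher and 0 lower in MLg (all genes 12.8% and 10.0%). The list's medians were 0.04 and −0.04. Gab1, a docking protein shared by many receptor kinases, rose from 7.90 ± 0.480 to 23.3 ± 3.37 FPKM in NIH-3T3 (log2 fold change 1.49, SE 0.12, adjusted p = 5.08e-07 in the limma fit) and from 11.7 ± 0.633 to 28.8 ± 1.93 FPKM in MLg (1.26, adjusted p = 3.94e-06, SD, n = 3). The difference of 0.24 between these effects did not pass (adjusted p = 0.396). In NIH-3T3 Shc2 fell by 0.65 (adjusted p = 0.00351) and the kinase Mapk3 (ERK1) by 0.49 (adjusted p = 0.00524), and Pik3r1, a regulatory subunit of phosphatidylinositol 3-kinase, rose by 0.64 (adjusted p = 0.00524). Rapgef1 and Map2k1 were the other rises, and both calls were lost without most libraries (8 and 7 of 12 in turn, adjusted p up to 0.160 and 0.130). In MLg Shc1 (adjusted p = 0.0658) and Frs3 (0.113) did not pass. Pik3r1, Rapgef1 and Map2k1 were named after their values were seen.

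Of 14 genes that process proneurotrophins or cleave p75, 12 were tested, with 1 higher and 1 lower in NIH-3T3 (all genes 16.6% and 14.8%) and 0 higher and 4 lower in MLg (all genes 12.8% and 10.0%). The list's medians were −0.10 and −0.20. Furin, the convertase that cuts proneurotrophins in the cell, rose in NIH-3T3 from 56.8 ± 9.16 to 99.7 ± 19.8 FPKM (SD, n = 3, log2 fold change 0.80, SE 0.15, limma adjusted p = 0.00115) and did not pass in MLg (0.25, adjusted p = 0.287). Its effects were not shown to differ between the lines (0.55, adjusted p = 0.111). Plat, tissue plasminogen activator, which makes the plasmin that cuts pro-BDNF outside the cell, fell in NIH-3T3 (log2 fold change −1.13, adjusted p = 4.96e-05) and in MLg (−1.02, adjusted p = 1.64e-04). Serpini1 (neuroserpin), an inhibitor of Plat, was 0.604, 0.200 and 0.163 FPKM in NIH-3T3 control and 0.506, 0.566 and 0.668 FPKM with SHHN, with overlapping groups (0.43, SE 0.19, adjusted p = 0.103, and 0.00884 without NIH-3T3 control replicate 1).

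The convertase gene Pcsk6 fell in MLg from 1.60, 3.70 and 3.88 FPKM to 0.940, 0.992 and 1.11 FPKM (log2 fold change −1.16, SE 0.23, limma adjusted p = 0.00195), and it was at most 0.0714 FPKM in NIH-3T3. Psen2, a subunit of the gamma-secretase that cleaves p75, fell by 0.62 (adjusted p = 0.0167), a call lost without MLg control replicate 2 or MLg SHHN replicate 1 or 3 (0.0551 to 0.0876), or with no filter (0.0588). Aph1a, of the same enzyme and named after its values were seen, completed the 4 with Plat, and its call was lost without any of the 6 MLg libraries and 2 others (0.0521 to 0.143).

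For each tested member the 3 genes with the most similar pattern over the 12 libraries were found by Pearson's r of log2(FPKM + 0.5), as a description in which the points share their 4 groups. They were Nwd1 (0.994), St8sia2 (0.991) and Pdzd2 (0.990) for Ngfr, and each of these 3 was at most 1.51 FPKM. These 3 met the filter through the 3 MLg SHHN libraries alone, so their passing it already required that group to be high. For Bdnf they were Prx (0.941), Lrrc8d (0.940) and Hhat (0.929). Hhat, the acyltransferase that palmitoylates Hedgehog proteins, went from 3.43 ± 0.397 to 21.8 ± 0.957 FPKM in NIH-3T3 (SD, n = 3) and was 8.81 ± 0.244 and 8.56 ± 0.814 FPKM in MLg. For Sort1 they were Tgtp2 (0.981), Npc1 (0.977), a cholesterol transporter of the lysosome, and Apcdd1 (0.975), a Wnt inhibitor. For Gdnf they were Aatk (0.959), Rnaseh2b (0.951) and Nup85 (0.942), of which Aatk also met the filter through the 3 MLg SHHN libraries alone.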

How the data were processed

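RNA of 12 libraries was sequenced and the authors deposited FPKM by gene. The submitters' processing notes name bcl2fastq, TopHat2 2.0.12, mm10 and Cufflinks 2.2.1. The annotation, strand setting and scaling between libraries are not given in the sources used here. One entry without values was left out. Ratios of low values between libraries did not pile up (at most 5.07% within 2% of 1 ratio), so reads could not be recovered.

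limma 3.58.1 (R 4.3.3) was fitted to log2(FPKM + 0.5) with 4 group means and a variance trend, over genes at 0.5 FPKM or more in 3 or more libraries. P-values are two-sided, Benjamini-Hochberg adjusted over 12379 genes per contrast, threshold 0.05. Fold changes on this scale understate low genes. On simulated data for NIH-3T3 SHHN against control (12379 genes), 87% of log2 changes of 1 and 99% of 2 were recovered. There 13 unchanged genes were called, 6.53% of all calls, which is above the threshold of 0.05.

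Members and lists were chosen with earlier results of these data known. Some genes of the lists are not reported here and are left out of their counts. The 7 members, every family gene and, per list and line, the 3 smallest p were named. Same-numbered MLg control and SHHN libraries deviated together (correlations across genes 0.132, 0.157 and 0.241). The main fit did not pair libraries, so its SE and adjusted p leave this out. Pairs by the numbers the labels give entered only an alternative fit, with a replicate block in both lines. Positions are from GENCODE M21, promoters from RefSeq (GRCm38.p6). Fits were repeated with other pseudocounts (0.1, 1), with no filter or one at 1 FPKM, with quantile and median-ratio scaling, per line, with a replicate block, and without each library in turn.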

Additional observations from a re-analysis of the deposited data

Results flagged for a closer look

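Tested here were 4 members, 7 other family genes and 11, 19 and 12 genes of the 3 pathway lists. Among these the SHHN effect differed between the lines for 7. The test was of the difference itself in the limma fit (NIH-3T3 minus MLg, log2 scale), which called 13.4% of all genes. The 7 are close to that share of the genes tested here, so nothing is read from their number. Cell type markers, Gli1 and the genes of similar pattern were not counted here, and several of them also passed. Among the members these were Ngfr (−3.91) and Bdnf (1.81), whose values were known when they were chosen. Outside the members they were Gfra1 (−1.77, adjusted p = 5.69e-04), Sorcs2 (−1.57, 5.56e-04), Mapk3 (−0.66, 0.0177), Pcsk6 (1.11, 0.0375) and Pik3r1 (0.70, 0.0432). The calls on Pcsk6 and Pik3r1 were lost without 11 and 8, in turn, of the 12 libraries (adjusted p up to 0.0972 and 0.103), the exceptions being MLg control replicate 1 for Pcsk6 and MLg control replicate 2 and the 3 NIH-3T3 controls for Pik3r1. With no filter on low values both calls ended (0.12 and 0.123), as did that of Pcsk6 with a pseudocount of 0.1 (0.12) and that of Pik3r1 with the replicate block (0.0571). The call on Mapk3 was lost without MLg SHHN replicate 2, where its adjusted p, 0.05 when rounded, lay just above the threshold.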

How the results depend on the processing

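Over the 20 alternatives run, the SHHN effects of Ngfr and Sort1 in both lines, of Bdnf in NIH-3T3 and of Gdnf in MLg kept their direction and their call, with Ngfr not testable in 1 of the NIH-3T3 fits. Ranges were 3.92 to 6.13 for Ngfr in MLg, 0.46 to 2.10 for Ngfr in NIH-3T3, 1.59 to 1.93 for Bdnf in NIH-3T3, and −1.17 to −0.98 (NIH-3T3) and −1.63 to −1.43 (MLg) for Sort1. Gdnf in NIH-3T3 ran from 0.41 to 0.82 with 1 library left out and gained its call with median-ratio scaling (0.57), and its difference between lines did so with quantile normalization (−0.89), making 2 members lower in that contrast. Ngfr in the control comparison passed with a pseudocount of 0.1 (−1.09). Signs turned only for changes that did not pass. Bdnf in MLg ran from −0.27 to 0.16 with 1 library left out, turning to 0.00284 and 0.161. Gdnf between control groups ran from −0.22 to 4.57e-05, and was 0.17 with quantile normalization. With 6 libraries per fit 1 member was higher in NIH-3T3, since Ngfr did not pass that filter. Genes called for the difference between lines ran from 1056 to 2311 with 1 library left out. Over 33 results of pathway genes and 653 alternatives, 77 ended a call, 11 gained one and 0 turned a sign. The causes were not tested.

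With the replicate block Ngfr was 4.71, Gdnf 1.30 and Sort1 −1.5 in MLg, and the block changed no call on a member. It ended the call on Traf6 in NIH-3T3 (adjusted p = 0.0608) and on the Pik3r1 difference (0.0571). Same-numbered NIH-3T3 libraries did not deviate together (−0.000703, −0.101 and 0.0269).

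Depth is unknown, so precision for Ntf3, Ntrk2 and Ntrk3 cannot be given.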
